A study of Homo sapiens with 4 samples.

Results

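The let-7 family and its close relative miR-98 were followed through a qPCR survey of mature microRNAs (miRNAs) in U2OS, a human osteosarcoma cell line. Members were taken by assay name, as hsa-let-7a to hsa-let-7i and hsa-miR-98 with any arm or copy suffix, which gave 18 of the 737 miRNA assays on the plates. Of these, 9 read the guide arm of the hairpin, the strand usually loaded into Argonaute, and 9 read the opposite arm, marked with a star. No star assay for let-7e or miR-98 was among the assays analysed here. The series has 4 samples in 4 groups, so each group is 1 sample and no difference below has a replicate check, an error or a p-value. The shDDX1 sample came from U2OS cells infected with a lentivirus carrying a short hairpin RNA against the RNA helicase DDX1, and the shNS sample from cells infected with a control hairpin virus. Both infected samples were selected with puromycin at 2 ug/ml. The NCS sample came from U2OS cells given neocarzinostatin, an enediyne that breaks both DNA strands, at 500 ng/ml for 6 hours, and the untreated sample from cells given none. The comparisons were shDDX1 over shNS, which asks how these miRNAs stand when DDX1 is targeted, and NCS over untreated, which asks how they stand after DNA damage. They share no sample. The panels read small RNAs only, so neither DDX1 itself nor protein-coding markers of the line could be checked.

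let-7 miRNAs are made from long primary transcripts that Drosha and then Dicer cut to a duplex of about the length of the mature strand. They are low in embryonic cells, where the RNA-binding protein LIN28 blocks their processing, and abundant in differentiated cells. Their known targets include RAS genes, HMGA2, MYC and LIN28 itself, and the family is regarded as tumour suppressive. The opposite arm is usually degraded after the guide is loaded.

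The 9 guide sequences are shown because the assays must tell apart strands that share one seed, the bases 2 to 8 that pair with a target (in capitals). The sequences are RefSeq's for GRCh38.p14, read 5′ to 3′.
hsa-let-7a: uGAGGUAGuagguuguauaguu
hsa-let-7b: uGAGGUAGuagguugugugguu
hsa-let-7c: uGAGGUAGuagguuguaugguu
hsa-let-7d: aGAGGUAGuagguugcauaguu
hsa-let-7e: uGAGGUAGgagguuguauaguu
hsa-let-7f: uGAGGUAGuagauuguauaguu
hsa-let-7g: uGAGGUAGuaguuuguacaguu
hsa-let-7i: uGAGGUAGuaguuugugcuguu
hsa-miR-98: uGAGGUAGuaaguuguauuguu
All 9 carry the seed GAGGUAG, and none of the other assays among the 601 of 737 that matched a RefSeq name carries it. Differences from let-7a, counted from 1 at the 5′ end with let-7a's base first, were A17G and A19G in let-7b, A19G in let-7c, U1A and U16C in let-7d, U9G in let-7e and G12A in let-7f. let-7g differed by G12U and U18C, miR-98 by G11A and A19U, and let-7i by 4 bases, G12U, A17G, U18C and A19U. Members 1 base apart may be read in part by one another's assay, and this was not tested.

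The opposite arms do not share a seed. One arm for each of their 5 seeds is shown, again with bases 2 to 8 in capitals.
hsa-let-7a*: cUAUACAAucuacugucuuuc
hsa-let-7a-2*: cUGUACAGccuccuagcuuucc
hsa-let-7c*: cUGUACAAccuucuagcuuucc
hsa-let-7d*: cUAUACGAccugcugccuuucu
hsa-let-7i*: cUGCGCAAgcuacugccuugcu
hsa-let-7b* and hsa-let-7f-1* have the seed of let-7a*, and hsa-let-7g* has that of let-7a-2*. hsa-let-7f-2* is named only.

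The matched strands come from 12 hairpins on 8 chromosomes (GRCh38.p14, RefSeq). The MIRLET7A1 hairpin (chr9:94175957-94176036, plus strand) lies 311 bases from MIRLET7F1 (chr9:94176347-94176433) and 2798 bases from MIRLET7D (chr9:94178834-94178920), all within the span of MIRLET7A1HG. MIR98 (chrX:53556223-53556341, minus strand) lies 851 bases from MIRLET7F2 (chrX:53557192-53557274) within the span of HUWE1. MIRLET7A3 (chr22:46112749-46112822, plus strand) and MIRLET7B (chr22:46113686-46113768) lie 864 bases apart within the span of MIRLET7BHG. MIRLET7A2 (chr11:122146522-122146593, minus strand) lies in MIR100HG, 5636 bases from MIR100. MIRLET7C (chr21:16539828-16539911, plus strand) lies in MIR99AHG, 659 bases from MIR99A. MIRLET7E (chr19:51692786-51692864, plus strand) lies 105 bases from MIR99B and 390 bases from MIR125A. MIRLET7G (chr3:52268278-52268361, minus strand) and MIRLET7I (chr12:62603686-62603769, plus strand) have no other miRNA hairpin within 10 kb. Whether each sits in an intron or an exon of its host was not analysed here. The mature let-7a guide is made from 3 of these hairpins and the let-7f guide from 2, so their readings cannot be assigned to a locus.

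The measurement is the quantification cycle (Ct), the PCR cycle at which a well crosses the fluorescence threshold, so a lower Ct means more RNA. Each assay had 1 well per sample. All 9 guide assays and let-7d* sit on panel I, and the other 8 opposite-arm assays on panel II, which is a separate plate. Over the 499 miRNA wells with Ct below 35 in every sample, the mean Ct was 26.1 in shDDX1, 25.8 in shNS, 29.4 in NCS and 30.1 in untreated cells. Each sample was centred on this mean, and the log2 ratio of a pair subtracts one centred level from the other, so that 1 cycle counts as 1 on the log2 scale. An assay was quantified when its Ct was below 35 in both samples, and 2-fold was the size used for counts. Repeated wells give the only spread: the 3 calibrator wells of a plate had an SD of 0.191 cycles, and 7 assays present on both panels gave an SD of an uncentred log2 ratio of 0.38 for shDDX1 over shNS and 0.79 for NCS over untreated. The spread for NCS over untreated is carried by miR-423-5p (panel I minus panel II 2.71) and was 0.35 over the other 6 assays, a check chosen after the data were seen. Plate position moved with the ratios, as given below, and water wells gave product in the infected pair, with the earliest on panel II at Ct 26.5 in shDDX1 and 26.6 in shNS, and on panel I at 27.3 in shDDX1 and 27.8 in shNS. Of the panel II opposite arms, 3 of 8 read later than that water well in each of these samples, and 0 of 9 guides read later than the one on panel I. No water well in NCS or untreated cells gave a Ct.

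**Figure D1:**
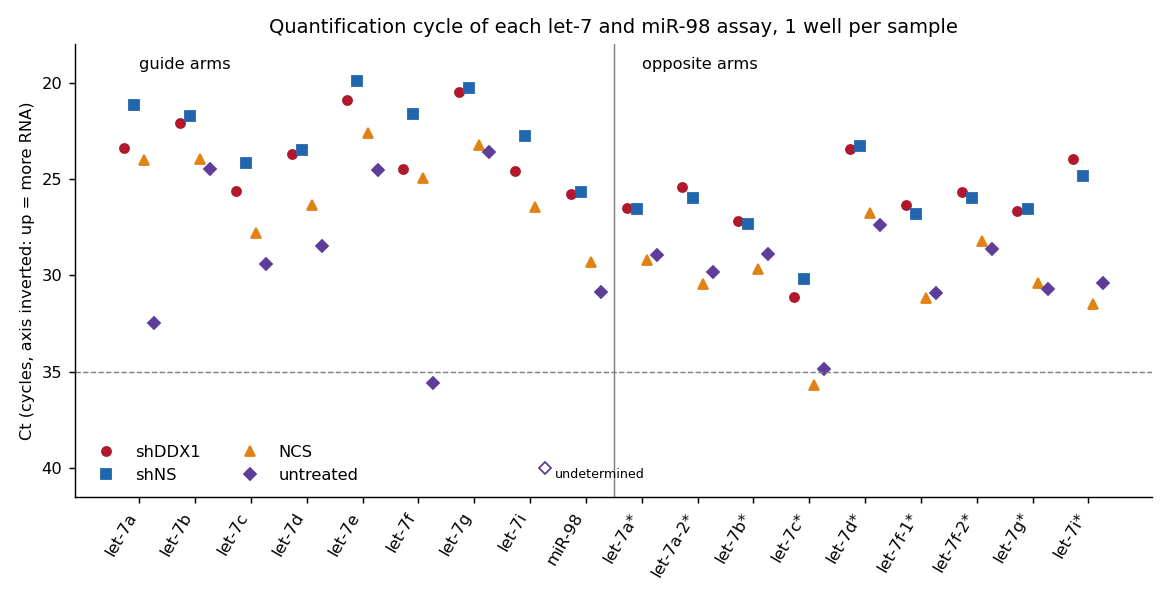
Ct of the 18 assays (y axis, cycles, inverted so that up is more RNA) in shDDX1, shNS, NCS and untreated cells, guide arms left of the vertical line and opposite arms right of it. The dashed line is the limit of Ct 35, and the open diamond marks the undetermined let-7i well. The untreated wells of let-7f at 35.6 and let-7a at 32.5 lie lowest among the guides read in that sample, with miR-98 next at 30.9.

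Every guide read in one order, earliest in shNS, then shDDX1, then NCS, and latest in untreated cells, in 9 of 9 assays. The panel I wells used for centring had the same order on average. Their mean Ct was 24.4 in shNS, 25.1 in shDDX1, 27.9 in NCS and 29.4 in untreated cells. The opposite arms had no single order. In 6 of 9 the earliest reading was in shDDX1 cells, and in 6 of 9 the latest was in NCS cells. Panel II, where 8 of the 9 sit, leaned the same way. Its centring wells had a mean Ct of 27.2 in shDDX1, 27.3 in shNS, 30.9 in NCS and 30.8 in untreated cells. let-7d*, on panel I, and let-7g*, on panel II, had the order of the guides. The share of all assays with either order is not given here. Guide Ct values ran between 20.5 and 25.8 in shDDX1, 19.9 and 25.7 in shNS, 22.6 and 29.3 in NCS, and 23.6 and 35.6 in the 8 untreated wells with a reading. Opposite-arm values ran between 23.4 and 31.1 in shDDX1, 23.3 and 30.2 in shNS, 26.8 and 35.7 in NCS, and 27.4 and 34.8 in untreated cells. Different assays amplify with different efficiency, so these Ct values do not rank one miRNA's abundance against another's. The distance between shDDX1 and shNS wells was below the 0.38 spread for the guides let-7b, let-7d, let-7g and miR-98 and for let-7a*, let-7b*, let-7d*, let-7f-2* and let-7g*. Between NCS and untreated wells it was below the 0.79 spread for let-7b and let-7g and for 6 of the 9 opposite arms. Below the 0.35 found without miR-423-5p lay let-7g and 3 opposite arms, let-7a*, let-7f-1* and let-7g*. These distances are uncentred and so include the shift between sample means that the centred log2 ratios below remove. let-7a-2* thus lay within 0.79 for NCS over untreated at -0.66 uncentred, while its centred ratio was -1.40.

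In shDDX1 cells, 4 guide arms, let-7f, let-7a, let-7i and let-7c, stood 2-fold or more below shNS cells, and the other 5 lay within 2-fold. No opposite arm was 2-fold lower, and let-7i* was the one member at least 2-fold higher. The 4 lower members of 18 (22.2%) stand beside 17.3% of all 716 quantified assays, and the 1 higher member (5.56%) beside 11.0%. Among panel I assays alone, where all guides sit, 29.2% were 2-fold lower, against 4 of 9 guides (44.4%). Among panel II assays alone 19.7% were 2-fold higher, against 1 of 8 opposite arms there (12.5%). The median log2 ratio over the 18 members was 0.13, and over all quantified assays 0.04.

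let-7f, which differs from let-7a by 1 base, had a Ct of 24.5 in shDDX1, 21.6 in shNS, 24.9 in NCS and 35.6 in untreated cells. The shDDX1 well was 2.88 cycles later than the shNS well, and after centring let-7f was 5.95-fold lower in shDDX1 cells (log2 ratio -2.57). It ranked 30th from the lowest of 716 assays. let-7a, which is made from 3 hairpins, had a Ct of 23.4 in shDDX1, 21.2 in shNS, 24.0 in NCS and 32.5 in untreated cells. It was 3.70-fold lower in shDDX1 than in shNS cells (log2 ratio -1.89) and ranked 50th. These 2 guides were at least 2-fold lower under each of 7 other scalings, with log2 ratios from -3.24 to -1.26 for let-7f and from -2.55 to -1.14 for let-7a. For shDDX1 over shNS, the scaling without centring and the authors' table gave identical member ratios. These 2 are therefore not separate checks in any count of scalings for this pair. Centring on the median or on small RNAs also moves every member by the same amount. Centring by panel or by calibrators moves every member of a panel by the same amount. Only subtraction of neighbouring wells changed the guides relative to each other in this pair.

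let-7i, encoded on its own at chromosome 12, had a Ct of 24.6 in shDDX1, 22.8 in shNS and 26.4 in NCS cells and no Ct in untreated cells. It was 2.84-fold lower in shDDX1 than in shNS cells (log2 ratio -1.51), and at least 2-fold lower under 6 of 7 other scalings. let-7c, the member beside miR-99a on chromosome 21, had a Ct of 25.6 in shDDX1, 24.2 in shNS, 27.8 in NCS and 29.4 in untreated cells. It was 2.23-fold lower in shDDX1 than in shNS cells (log2 ratio -1.15) and passed 2-fold under 4 of the 7. Both therefore rest closer to the threshold than let-7f and let-7a.

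let-7e, made from the cluster with miR-99b and miR-125a, had a Ct of 20.9 in shDDX1, 19.9 in shNS, 22.6 in NCS and 24.5 in untreated cells, and a shDDX1 over shNS log2 ratio of -0.68. let-7b had a Ct of 22.1 in shDDX1, 21.7 in shNS, 23.9 in NCS and 24.5 in untreated cells, and a ratio of -0.07. The shDDX1 and shNS wells of let-7b lay close together, while those of let-7e were about a cycle apart. let-7g, the guide read earliest in shDDX1 and in untreated cells, had a Ct of 20.5 in shDDX1, 20.3 in shNS, 23.3 in NCS and 23.6 in untreated cells, with a log2 ratio of 0.10. let-7d, transcribed with let-7a-1 and let-7f-1, had a Ct of 23.7 in shDDX1, 23.5 in shNS, 26.3 in NCS and 28.5 in untreated cells, with a log2 ratio of 0.08. miR-98, whose guide differs from let-7a by G11A and A19U, had a Ct of 25.8 in shDDX1, 25.7 in shNS, 29.3 in NCS and 30.9 in untreated cells, with a log2 ratio of 0.23. For these last 3 guides the uncentred wells of the infected samples did not separate beyond the 0.38 spread of repeated assays. This turned on the centring. With each panel centred separately the log2 ratios were 0.52 for let-7g, 0.50 for let-7d and 0.65 for miR-98. With neighbouring wells subtracted they were 0.63 for let-7g, 0.74 for let-7d and 0.14 for miR-98.

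Strands with a single source hairpin allow a locus to be named. From chromosome 9, let-7d had a log2 ratio for shDDX1 over shNS of 0.08 (0.50 with each panel centred separately), let-7d* 0.16 (0.58) and let-7f-1* 0.74 (0.31). From the X chromosome, miR-98 had 0.23 (0.65). let-7f-2*, read on the other panel, had 0.60 (0.17), so its order against miR-98 depended on the centring. The let-7a and let-7f guides, with several source hairpins, give no value for either cluster.

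The opposite arms had a median log2 ratio of 0.44 for shDDX1 over shNS, while the guides had -0.68. let-7i* had a Ct of 24.0 in shDDX1, 24.9 in shNS, 31.5 in NCS and 30.4 in untreated cells, which made it 2.26-fold higher in shDDX1 than in shNS cells (log2 ratio 1.18), although its guide was lower. let-7a-2* had a Ct of 25.4 in shDDX1, 26.0 in shNS, 30.5 in NCS and 29.8 in untreated cells, and a log2 ratio of 0.87. In both, the shDDX1 well was the earliest of the 4. let-7c*, the latest opposite arm, had a Ct of 31.1 in shDDX1, 30.2 in shNS, 35.7 in NCS and 34.8 in untreated cells, and a log2 ratio of -0.62. let-7a* had 26.5 in shDDX1, 26.6 in shNS, 29.2 in NCS and 28.9 in untreated cells, and let-7b* 27.2 in shDDX1, 27.3 in shNS, 29.7 in NCS and 28.9 in untreated cells. let-7c* was thus the one opposite arm below 0, and let-7a* (0.37) and let-7b* (0.44) lay near the arm median. The remaining opposite arms, let-7d*, let-7f-1*, let-7f-2* and let-7g*, had ratios between 0.16 and 0.74.

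The panels themselves differed in the same direction as the arms. Over all quantified miRNA wells the median log2 ratio for shDDX1 over shNS was -0.42 for panel I, where the guides sit, but 0.46 for panel II. When each panel was centred on its own wells, let-7f (-2.15), let-7a (-1.46), let-7i (-1.09) and let-7c* (-1.05) were at least 2-fold lower, again 4 of 18 members, beside 15.6% of all assays. let-7c (-0.73) and let-7i* (0.74) then lay within 2-fold. No member was 2-fold higher, beside 7.82% of all assays. let-7i* was at least 2-fold higher under 1 of the 7 other scalings.

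**Figure D2:**
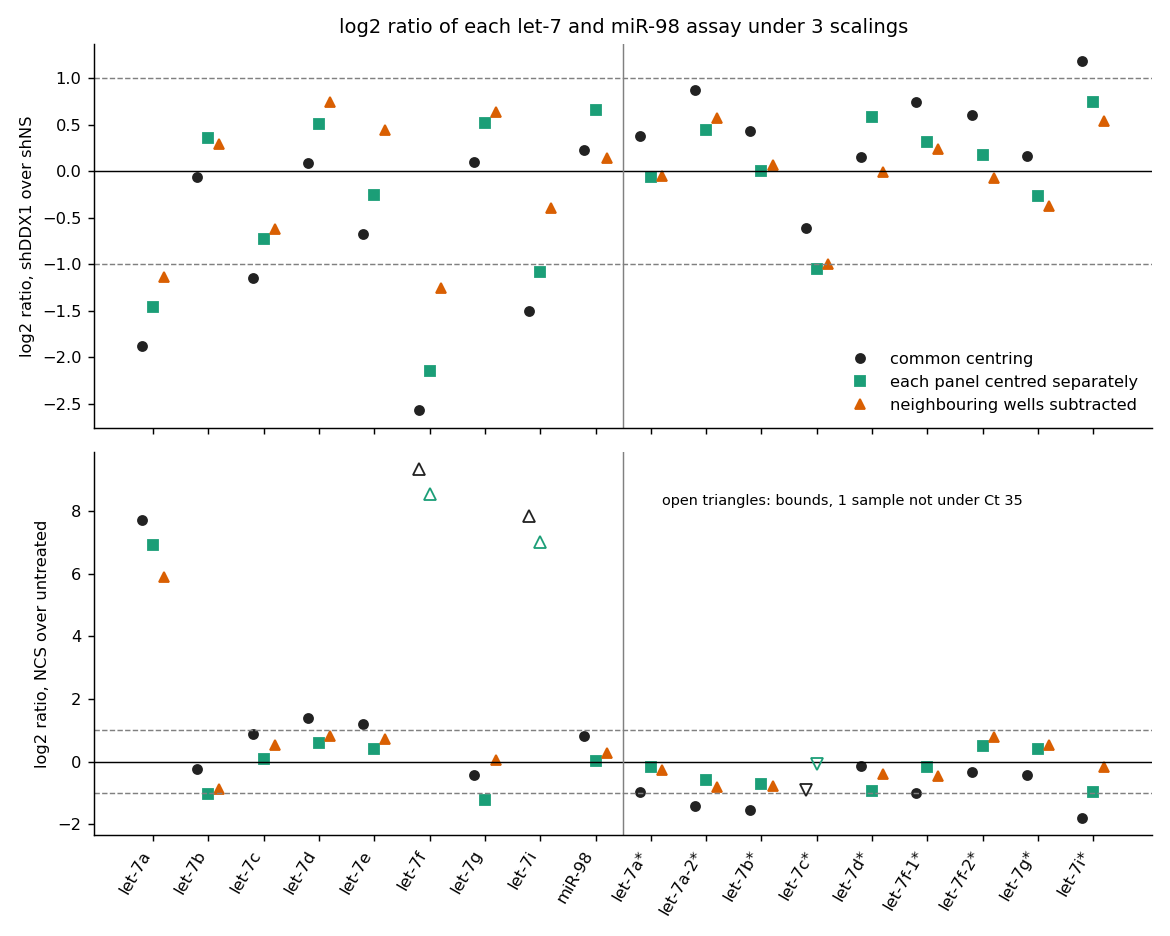
log2 ratio of each assay for shDDX1 over shNS (top) and NCS over untreated (bottom) with all wells centred together (circles), each panel centred separately (squares) and the median of neighbouring wells subtracted (filled triangles). Dashed lines mark 2-fold and open triangles mark bounds. let-7f and let-7a stay below -1 at the top under the 3 scalings, and let-7a lies between 5.90 and 7.71 at the bottom.

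Position on the plate moved with the ratios of the guides. Across columns 7 to 18, the middle of panel I, the median log2 ratio of all miRNA wells for shDDX1 over shNS was -0.82, and in its outer columns -0.22. Of the 6 guides in the middle columns, 3 (50.0%) were at least 2-fold lower, beside 41.1% of all assays there. let-7f (well H9) and let-7i (well J9) lie 2 rows apart in 1 column. The miRNA wells within 2 rows and 2 columns of let-7f had a median ratio of -1.31, those around let-7i -1.11, those around let-7a -0.75 and those around let-7c -0.53. With these medians subtracted, let-7f stood at -1.26, let-7a at -1.14, let-7c at -0.62 and let-7i at -0.40. Around let-7e the median was -1.12, and its own ratio became 0.44. The part of plate position in the ratios was not tested.

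**Figure D3:**
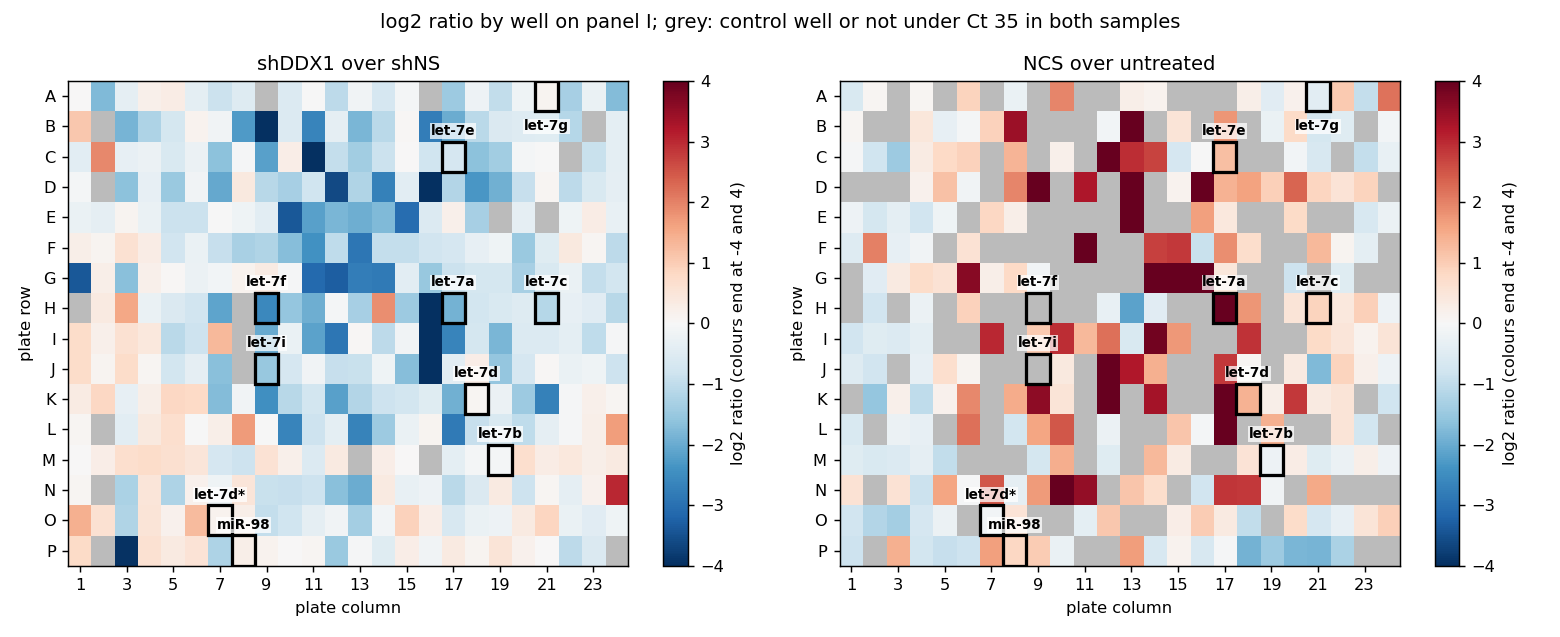
log2 ratio of every miRNA well of panel I by plate row and column, for shDDX1 over shNS (left) and NCS over untreated (right), with the 10 member wells outlined. Grey wells hold controls or have a sample not below Ct 35. Middle columns are bluer on the left (median -0.82 against -0.22 in outer columns) and redder on the right (1.21 against -0.16).

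In NCS-treated cells, 3 guides, let-7a, let-7d and let-7e, were at least 2-fold higher than in untreated cells, and let-7f and let-7i were higher by a bound because their untreated wells gave no quantified reading. Of the opposite arms, let-7a-2*, let-7b* and let-7i* were at least 2-fold lower. Of the 15 quantified members, 3 (20.0%) were higher, beside 16.9% of all 498 quantified assays, and 3 (20.0%) were lower, beside 22.3%. Of the quantified guides 3 of 7 (42.9%) were 2-fold higher, beside 30.4% of panel I assays, and of the opposite arms quantified on panel II 3 of 7 (42.9%) were 2-fold lower, beside 40.4% of all assays there. The median log2 ratio was -0.33 over the members and -0.38 over all assays.

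let-7a stood apart from the other quantified members. Its Ct of 24.0 in NCS cells and 32.5 in untreated cells made it 209.5-fold higher in NCS cells (log2 ratio 7.71). This was the third highest of the 498 assays quantified in both samples. The ranking leaves out assays not below Ct 35 in either sample of the pair, among them let-7f and let-7i, whose bounds are higher. The log2 ratio of let-7a lay between 5.90 and 8.50 under the 7 other scalings. let-7f had 24.9 in NCS cells and 35.6 in untreated cells, past the limit. With the untreated well set to 35, let-7f was at least 650.02-fold higher in NCS cells, or at least 372.5-fold with each panel centred separately. let-7i had 26.4 in NCS cells and no Ct in untreated cells, a bound of at least 227.6-fold, or 130.4-fold by panel. These 3 guides are also those with the lowest shDDX1 over shNS ratios.

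The samples differed in how evenly the guides read. Set against shNS, the NCS wells of the 9 guides were later by 2.20 to 3.66 cycles (median 2.95). The median was 3.12 for the 253 panel I miRNA wells with Ct below 35 in every sample. The untreated wells were later than the shNS wells by 13.97 cycles for let-7f and 11.3 for let-7a, but by 2.71 to 5.25 for the 6 guides other than let-7a, let-7f and let-7i, which were set aside after their values were seen. The median of the same 253 panel I wells was 4.58. That set leaves out every well not below Ct 35 in untreated cells, among them let-7f and let-7i. The NCS readings of let-7a and let-7f lay in the range of those 6 guides. Their untreated readings lay outside it, which followed from how the 6 were chosen and is no test. The SD was 0.505 cycles over 9 guides for NCS minus shNS and 4.01 over 8 for untreated minus shNS. The second includes the late wells of let-7a and let-7f.

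**Figure D4:**
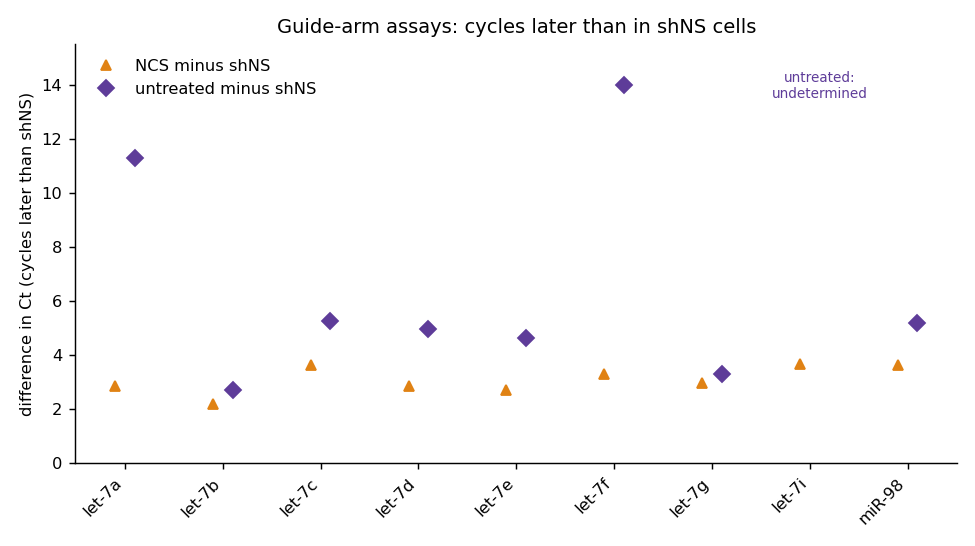
Ct of each guide assay in NCS and in untreated cells minus its Ct in shNS cells (y axis, cycles later than shNS), 1 point per sample. The NCS points lie between 2.20 and 3.66, while the untreated points of let-7a and let-7f lie at 11.3 and 13.97 and let-7i has none.

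Many wells near those 3 guides also gave no reading below Ct 35 in untreated cells. Of the 24 miRNA wells around let-7f, 8 were not below Ct 35 in NCS cells and 15 in untreated cells. Around let-7i the numbers were 4 in NCS and 13 in untreated cells, and around let-7a 1 in NCS and 12 in untreated cells. Around let-7g, at the plate edge, it was 1 of 12 wells in each. Around the other guides the numbers in untreated cells were 11 of 24 for let-7d, 10 of 24 for let-7e and 9 of 24 for let-7c. They were 5 of 24 for let-7b and 3 of 14 for miR-98. Such wells were therefore not confined to the surroundings of let-7a, let-7f and let-7i. On the whole of panel I, 58 of 375 wells were not below 35 in NCS cells and 119 in untreated cells, and on panel II 91 of 365 in NCS and 100 in untreated cells. In the middle columns of panel I, 3 of the 4 quantified guides (75.0%) were 2-fold higher, beside 55.8% of all assays there. Whether failed reactions account for the untreated readings of let-7a, let-7f and let-7i was not tested.

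The other guides had smaller ratios. let-7d was 2.62-fold higher in NCS than in untreated cells (log2 ratio 1.39) and let-7e 2.31-fold higher (1.21), each past 2-fold under 5 of 7 other scalings. let-7c (0.88) and miR-98 (0.84) were higher by less than 2-fold, and let-7b (-0.22) and let-7g (-0.41) were lower by less than 2-fold. With each panel centred separately let-7d (0.59) and let-7e (0.40) lay within 2-fold, and let-7b (-1.02) and let-7g (-1.21) became 2-fold lower. By panel, 1 of 15 members was higher, beside 13.7% of all assays, and 2 were lower, beside 20.5%. let-7a kept its call, and the directions of let-7d, let-7e, let-7c and miR-98 stayed above 0 under all 7 other scalings, while those of let-7b and let-7g did not stay on one side.

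On the opposite arms, let-7i* was 3.46-fold lower in NCS than in untreated cells (log2 ratio -1.79), let-7b* 2.92-fold lower (-1.55) and let-7a-2* 2.63-fold lower (-1.40). let-7i* passed 2-fold under 5 of the 7 other scalings and the other two under 1 each. let-7f-1* had a Ct of 31.2 in NCS and 30.9 in untreated cells, and its ratio of -0.998 was just short of 2-fold. let-7c* was past the limit in NCS cells at 35.7, with 34.8 in untreated cells, which bounds it at 1.86-fold lower or more, or 1.05-fold by panel. let-7a* (-0.98), let-7g* (-0.41), let-7f-2* (-0.33) and let-7d* (-0.12) completed the set, so all 8 quantified opposite arms lay below 0 with common centring. The median over panel II wells was -0.84, and by panel let-7f-2* (0.50) and let-7g* (0.41) stood above 0.

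Guide and opposite arm of a hairpin were then set side by side. A gap in Ct between arms is not their ratio of molecules, since the assays differ, but its size can be followed from sample to sample. With each panel centred, the opposite arm of let-7b read 3.05 cycles after the guide in shDDX1, 2.69 in shNS, 2.74 in NCS and 3.04 in untreated cells. For let-7g the gap was 4.14 in shDDX1, 3.35 in shNS, 4.12 in NCS and 5.74 in untreated cells. For let-7a against let-7a* it was 1.10 in shDDX1, 2.50 in shNS, 2.14 in NCS and -4.92 in untreated cells. The let-7b gap was nearly level in the 4 samples, while that of let-7a changed sign in untreated cells, where the star read first.

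let-7f against let-7f-1* had a gap of -0.16 in shDDX1, 2.29 in shNS, 3.23 in NCS and -6.07 in untreated cells. let-7i against let-7i* had -2.63 in shDDX1, -0.80 in shNS and 2.02 in NCS cells. By the Ct as deposited the guide read first in 7 of 9 pairs in shDDX1, 8 of 9 in shNS, 9 of 9 in NCS and 3 of 8 in untreated cells. With each panel centred the gap favoured the guide in 5 of 9 pairs in shDDX1, 7 of 9 in shNS, 9 of 9 in NCS and 3 of 8 in untreated cells. let-7d is the one pair with both arms on one plate, and its gap was -0.26 in shDDX1, -0.19 in shNS, 0.45 in NCS and -1.06 in untreated cells.

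**Figure D5:**
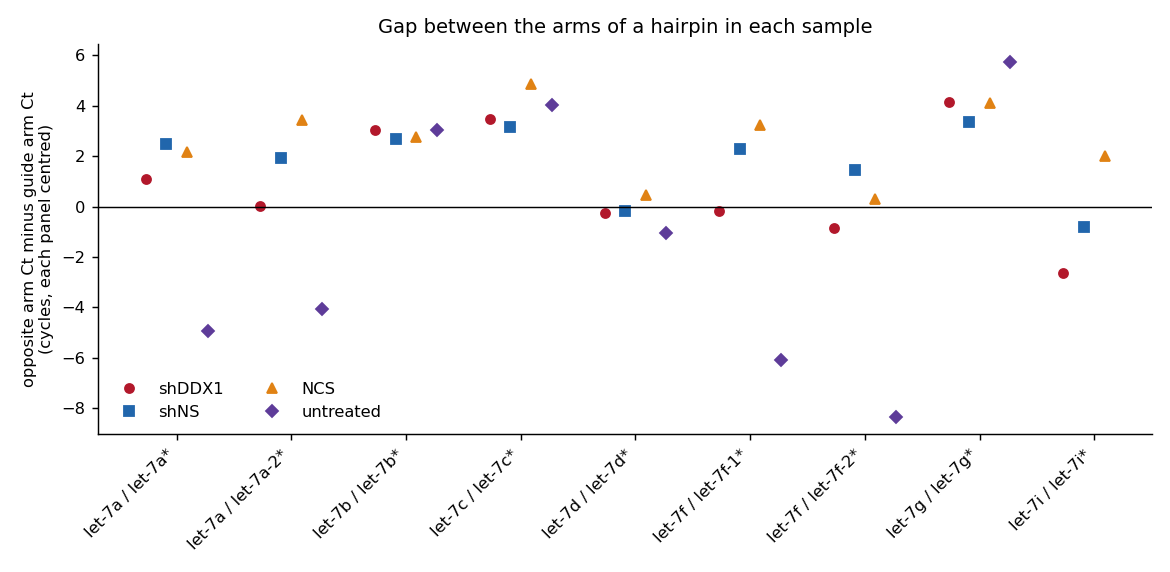
Opposite-arm Ct minus guide-arm Ct for the 9 pairs (y axis, cycles, each panel centred on its own wells) in shDDX1, shNS, NCS and untreated cells. The untreated points of let-7a and let-7f pairs lie between -8.33 and -4.05, while let-7b stays between 2.69 and 3.05 in the 4 samples.

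As a difference of log2 ratios, guide minus opposite arm, the median for shDDX1 over shNS was -2.26 over 9 pairs, with 9 of 9 below 0. By panel it was -1.40, with 6 of 9 below 0, and with neighbouring wells subtracted -0.94, with 5 of 9. The pairs share guides, since let-7a and let-7f each enter 2 pairs. The lowest value was -3.31, for let-7f against let-7f-1*, and the highest -0.07, for let-7g. let-7d, with both arms on panel I and so free of the difference between panels, had -0.07. With neighbouring wells subtracted it had 0.75, so plate position still entered. For NCS over untreated the median was 1.51 over 5 pairs, 5 of 5 above 0, and by panel 1.51 with 3 of 5 above 0. The let-7d pair had that same 1.51.

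Strands of miR-99, miR-100 and miR-125 (11 assays) and repressors of LIN28 outside the family were read from lists chosen with earlier results of these data known. Hairpins of miR-99a, miR-99b, miR-100 and miR-125a lie within 10 kb of a let-7 hairpin, and none of miR-125b was found there. Of the 11 assays, 0 were 2-fold lower and 2 were 2-fold higher in shDDX1 than in shNS cells, beside 17.3% and 11.0% of all assays. Their median log2 ratio was 0.08. With each panel centred separately 2 were lower, miR-100* (-1.02) and miR-125b-1* (-1.25), and 2 higher, with a median of 0.50, beside 15.6% and 7.82% of all assays. miR-99a, the neighbour of let-7c, had a Ct of 22.7 in shDDX1, 24.3 in shNS, 27.4 in NCS and 27.4 in untreated cells and was 3.79-fold higher in shDDX1 than in shNS cells, while let-7c was lower. miR-99b (0.08) and miR-125a-5p (0.20), the neighbours of let-7e (-0.68), lay within 2-fold. In NCS cells 3 of the 11 were 2-fold lower than in untreated cells, beside 22.3% of all assays. These were miR-100 (-1.87), miR-125b-1* (-1.75) and miR-100* (-1.02), and 0 were higher, beside 16.9% of all assays. By panel the counts were also 3 and 0, beside 20.5% and 13.7% of all assays, but the members changed. Those lower by panel were miR-100 (-2.67), miR-99a (-1.59) and miR-99a* (-1.14), so only miR-100 was lower by both centrings. Of 6 repressors of LIN28 outside the family, miR-9 and miR-30a to miR-30e, 2 were 2-fold lower in shDDX1 cells. These were miR-30a (-1.33) and miR-30d (-1.19), beside 29.2% of panel I assays. With each panel centred separately 0 were lower, beside 15.6% of all assays. None of the 6 was 2-fold higher by either centring, beside 11.0% of all assays with common centring and 7.82% by panel. In NCS cells 2 of the 5 quantified, miR-9 (1.43) and miR-30e (1.76), were 2-fold higher than in untreated cells, beside 30.4% of panel I assays. None was 2-fold lower, beside 22.3% of all assays. By panel 0 were higher, beside 13.7% of all assays, and 2 were lower, miR-30a (-1.62) and miR-30b (-1.19), beside 20.5%. Both counts of this list thus turned on the centring.

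The assays whose pattern was most like let-7a's were found among 301 panel I assays with a Ct in all 4 samples, by the Euclidean distance over the 4 centred levels. miR-30b* was nearest at 0.235 cycles, followed by miR-888 at 0.887, miR-186 at 0.969, miR-101 at 1.04 and miR-155 at 1.28. miR-30b* had a Ct of 28.1 in shDDX1, 26.1 in shNS, 29.0 in NCS and 37.5 in untreated cells, so it too was latest by far in untreated cells. All 5 lie in plate columns 9 to 16. Of the family, let-7f ranked 13th (2.05), and the next member, let-7d, ranked 95th (5.17).

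The authors' deposited table of folds lists the same leading guides. For shDDX1 over shNS its member folds are the uncentred Ct differences on a linear scale, so it is no separate check of that pair. It gives 0.136 for let-7f, 0.219 for let-7a, 0.285 for let-7i and 0.364 for let-7c in shDDX1 over shNS. For NCS over untreated the authors' deposited table gives 6535 for let-7i, 245.6 for let-7f and 138.6 for let-7a. The let-7i value in the authors' deposited table uses a shifted Ct of 35.2 in untreated cells, where the Ct table marks the well as undetermined, so no size is taken from it here.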

How the data were processed

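Total RNA of 4 U2OS samples was reverse transcribed and read by SYBR Green qPCR on 2 panels, per the labels. The deposited files hold 384 wells a panel. Instrument and threshold are not stated in those labels. As deposited, the authors' files are 3 tables: Ct per well (handled as a score), shifted Ct (also a score), and a linear fold ratio of each sample over its control. In the authors' shifted table, the infected pair differs from the Ct table by -0.789 cycles for panel I members and 0.789 for panel II members, NCS cells by -3.91 to -0.421 cycles and untreated cells by -6.43 to -0.0497 cycles, well by well. The method of that shift is not stated there. The authors' table of folds has 2 columns for control samples, which were not used.

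The Ct table was analysed. Levels were minus Ct, centred per sample on the mean of 499 (67.4%) of 740 miRNA wells with Ct below 35 in all samples, and assays on both panels were averaged. No count model or test was run, because each group has 1 sample. The computation was tested on simulated data. Members, lists and rules were chosen with earlier results of these data known. Named were all members, 11 assays of miR-99, miR-100 and miR-125 strands, 6 other LIN28 repressors, assays sharing the seed and the 5 panel I assays nearest let-7a. Alternatives were 7 scalings or tables (median, per panel, small RNAs, none, calibrators, neighbouring wells, the authors' table), Ct limits of 37, 32 or none, and 1.5-fold and 4-fold. Sequences were matched by name to RefSeq (17 of 18 members). Python 3.11.15, NumPy 2.4.6 and matplotlib 3.10.9 were used.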

Additional observations from a re-analysis of the deposited data

Results flagged for a closer look

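Water wells, which lie outside the comparisons, gave product in the infected pair. The earliest water well read at Ct 26.5 in shDDX1 and 26.6 in shNS, with a Ct in 7 of 9 water wells in shDDX1 and 6 of 9 in shNS, while none of the 9 had one in NCS or untreated cells.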

How the results depend on the processing

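No paired analysis was possible because groups of 1 sample share no replicate numbers to pair. Over the 7 other scalings no member was 2-fold lower under one and 2-fold higher under another, and for each value that moved the cause was not tested. The number of members at least 2-fold lower in shDDX1 than in shNS was 4, and 6 with small RNAs and at 1.5-fold, 3 with neighbouring wells and 1 at 4-fold. The number higher was 1, and 0 by panel, with small RNAs, without centring, with calibrators, with neighbouring wells, in the authors' table and at 4-fold, and 4 at 1.5-fold. The members' median of 0.13 became -0.54 with small RNAs, -0.18 without centring and in the authors' table, and -0.03 with calibrators. The guide minus opposite median of -2.26 became -1.40 by panel, -1.34 with calibrators and -0.94 with neighbouring wells. In NCS over untreated, the number lower was 3, and 1 with small RNAs, without centring, with calibrators and in the authors' table, 0 with neighbouring wells and at 4-fold, and 5 at 1.5-fold. The number higher was 3, and 1 by panel, with neighbouring wells and at 4-fold, and 5 with small RNAs, without centring, in the authors' table and at 1.5-fold. The median of -0.33 became 0.69 in the authors' table, 0.46 with small RNAs, 0.41 without centring and 0.06 with neighbouring wells. The guide minus opposite median of 1.51 became 5.57 over 8 pairs with a Ct limit of 37 or none, which adds both let-7f pairs and the let-7c pair. Ct near 35 limits let-7c*, and the untreated wells of let-7f and let-7i give bounds only.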
